A study of Mus musculus with 6 samples.

Results

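The 54 genes described here encode the machinery that copies DNA in S phase and the factors that supply it. A gene was included where a probe set of the array carried exactly 1 gene symbol in the platform annotation and that symbol was on the list. This gave 114 probe sets of 45037 and 53 of the 54 genes, out of 18193 genes with such a probe set, and Chaf1a alone had none. Each gene was placed in 1 of 12 groups by the known role of its protein. Expression was measured on 6 Affymetrix mouse arrays, 3 from marrow of ASXL1-MT-transplanted mice, labelled as having a disease that resembles myelodysplastic syndrome, and 3 from marrow of mock-transplanted mice, labelled as normal controls. All 6 titles carry the prefix BMT. What the mock mice received is not given in the sources used here, and neither are the strain, the age, the vector, the form of the ASXL1 mutant and whether animals were pooled. The series text states for both groups a magnetic depletion of cells bearing CD3e (T cells), B220 (B cells) or TER-119 (red cell precursors), and the source label repeats it for mock alone. The labels do not state that each sample is a mouse of its own, so a p-value here sets differences against a spread that may be technical. ASXL1 is a chromatin regulator that binds Polycomb and deubiquitinase complexes, and truncating mutations of it recur in myelodysplastic syndrome.

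Replication starts where the origin recognition complex, with CDC6 and CDT1, loads the MCM helicase onto DNA in G1. In S phase the kinase CDC7 with DBF4 and the factors CDC45, GINS and MCM10 turn the loaded helicase on, the polymerases then copy both strands around the sliding clamp PCNA, and FEN1 and LIG1 finish the lagging strand. Many of these genes are transcribed in late G1 by E2F factors, and in marrow they are known to be active in dividing progenitors and silent in mature neutrophils.

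The values are log2 signals centred on the median of each probe set over the 6 arrays, and a gene's value is the mean of its probe sets. Each change below is the difference of group means, ASXL1-MT over mock, with its standard error (SE). Centring removed the absolute levels, so neither the strength of expression nor a ranking of genes by level can be read from them. Array medians over all probe sets ran from 0.02 to 0.05 in ASXL1-MT and from -0.05 to -0.03 in mock, and the median change of all genes was 0.11. Part of the brightness can be read from number rounding, and a probe set is called bright where its 3 highest arrays lay on the rounding step of signals of 256 or more. By that rule 86 of the 114 replication probe sets (75.4%) were bright, against 38.2% of all probe sets. At least 1 bright probe set was present for 15 of 16 mature neutrophil markers and 7 of 7 granulocyte precursor markers, in samples labelled as myeloid marrow cells. The same held for 9 of 12 stem and progenitor, 8 of 11 dendritic cell, 5 of 12 erythroid, 4 of 10 B cell, 3 of 9 T and NK cell and 2 of 8 megakaryocyte markers. Asxl1 itself was -0.15, -0.03 and -0.05 in ASXL1-MT arrays, against -0.02, 0.05 and 0.05 in mock (change -0.10, SE 0.12, adjusted p = 0.662 by limma). Whether its probe sets detect the introduced sequence is not given in the sources used here, so they do not check the labels.

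Most replication genes had somewhat higher values in ASXL1-MT marrow, few passed the test, and the differences were small. Of 53 genes, 49 had a change above 0 (92.5%, against 56.6% of all genes), and the median change was 0.33, or 0.22 above that of all genes. The mean of the 53 genes was 0.19, 0.16 and 0.18 in ASXL1-MT arrays 1 to 3 and -0.21, -0.23 and -0.18 in the mock arrays. The 3 values of a group lay within a few hundredths of each other, and the groups stood far apart on that scale. In 32 genes (60.4%) every ASXL1-MT array was above every mock array, which held for 23.5% of all genes, and in 0 every ASXL1-MT array was below, which held for 14.4%. In the limma test across all genes 8 of the 53 rose (15.1%, against 6.63% of all genes) and 0 fell, where 4.75% of all genes fell. They were Ung, Fen1, Orc5, Cdc7, Mcm2, Pole, Rpa1 and Prim1. Without adjustment, 21 were higher and 0 lower at p under 0.05, against 18.1% and 10.9% of all genes. No gene reached 2-fold, and the largest fold was 1.94, for Ung. In these bulk samples fewer cells of a type and less RNA per cell cannot be told apart.

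**Figure D1:**
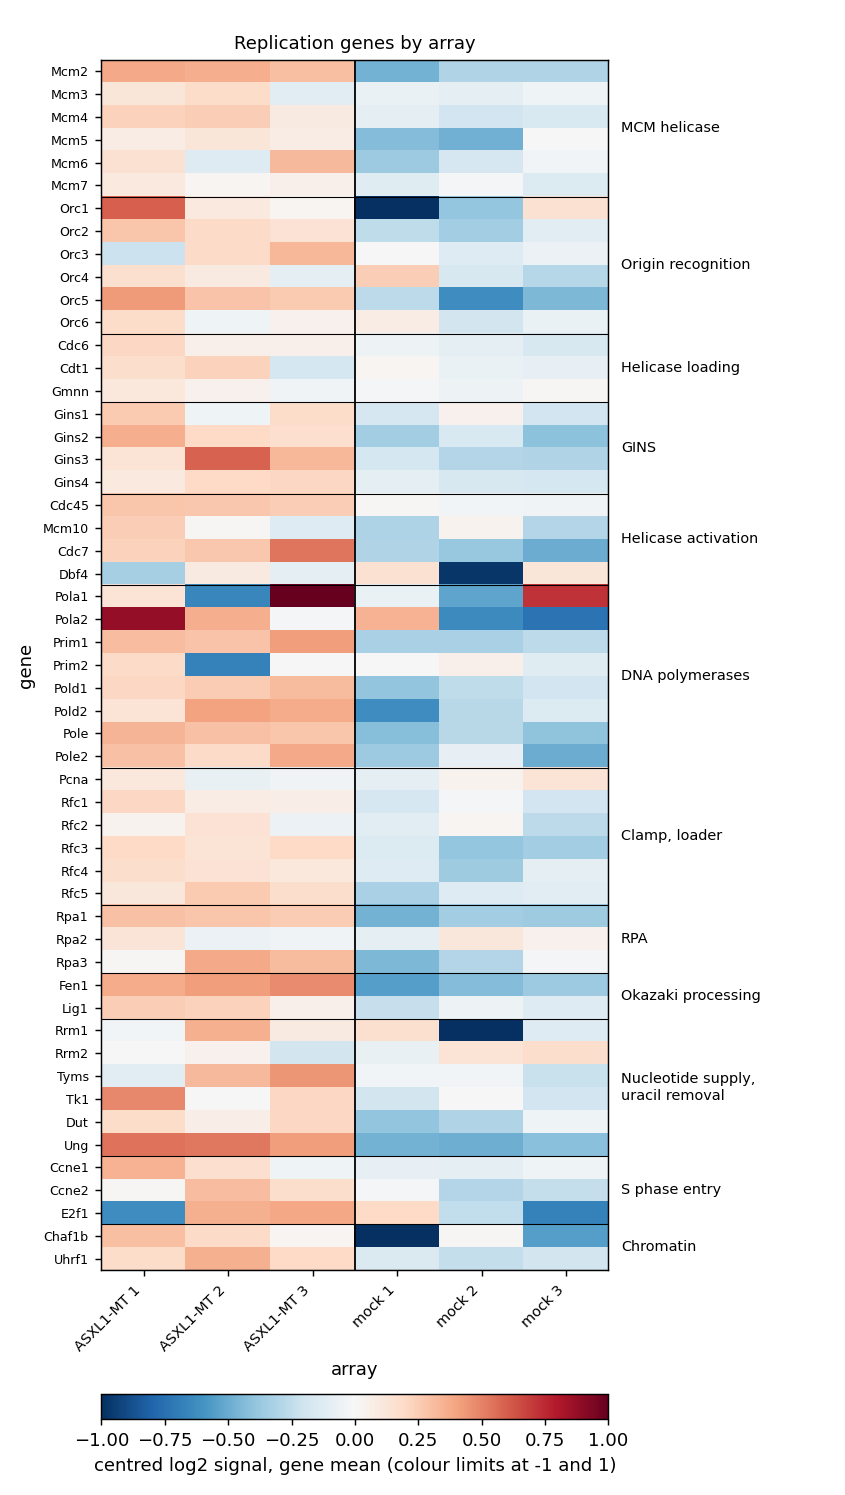
Heat map of the 53 measured replication genes (rows, grouped by complex) on the 6 arrays (columns, ASXL1-MT left, mock right). Colour is the centred log2 signal averaged over a gene's probe sets, with limits at -1 and 1. The ASXL1-MT columns are mostly red and the mock columns mostly blue, while Pcna, Rpa2 and Rrm2 show no such split and Orc1, Dbf4, Rrm1 and Chaf1b each hold a deep blue mock cell.

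The number of members called changed with the scaling and with each array. It was 6 with array medians set equal (11.3%, against 5.47% of all genes) and 5 after quantile normalization (9.43%, against 5.33%). After cyclic loess it was 3, which is 5.66% of the 53 genes against 5.16% of all genes and so close to the background. With 1 array left out it was 1, Ung, without ASXL1-MT replicate 1 or without mock replicate 1, and 0 without any of the other 4 arrays. That 1 gene is 1.89% of the members, against 2.8% and 2.72% of all genes higher in those fits. In the other 4 fits 0.401% to 1.92% of all genes were higher. Restricting the fit to bright probe sets, whose spread is smaller, gave 27 of 52 genes (51.9%, against 27.6% of all genes in that fit) with 0 lower (against 16.2%, and 0 at an unadjusted p under 0.05). Of the 86 bright probe sets taken singly 37 rose, against 23.6% of all bright ones. The 27 genes became 21 with equal array medians and 22 after cyclic loess, where 22.5% and 21.2% of all genes rose, and between 19 and 25 with an array left out. Leaving out an array and renormalizing the bright probe sets were chosen after the data were seen. The bright rule looks at the 3 highest arrays of a probe set. In the 64 replication probe sets with every ASXL1-MT array above every mock array, those were the ASXL1-MT arrays. A probe set can thus be bright through the group where it is high alone. The rule is therefore not independent of the comparison. The counts, calls and adjusted p-values with bright probe sets, here and below, are a description only.

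**Figure D2:**
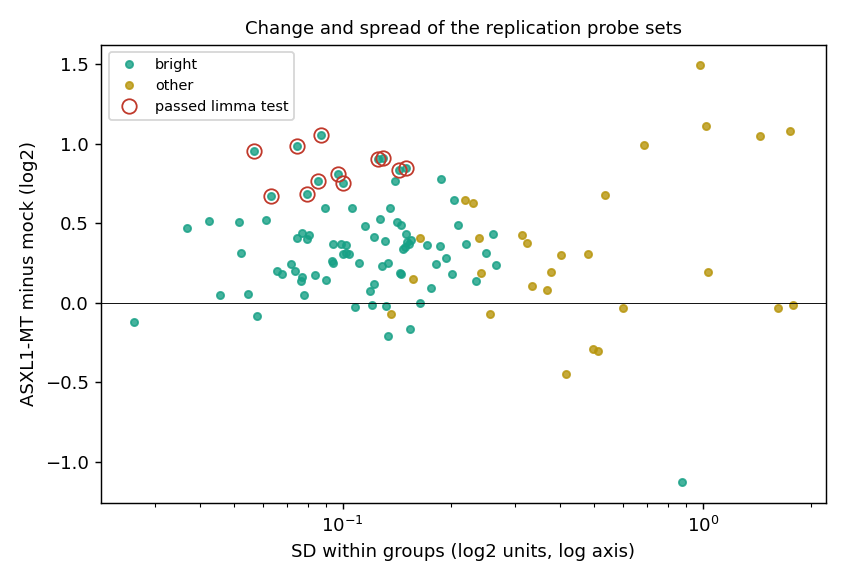
Change of each of the 114 replication probe sets (vertical axis, ASXL1-MT minus mock, log2) against its SD within groups (horizontal, log axis). Bright probe sets are green, the others ochre, and red rings mark the 12 that passed limma's test over all probe sets. All 12 are bright, with an SD of 0.15 or less, while the 4 largest changes among the others have an SD of 0.98 or more.

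At the level of single probe sets, 12 of the 114 changed, against 8.1% of all probe sets. All 12 rose (10.5%, against 4.73% of all probe sets) and 0 fell (against 3.37%). At an unadjusted p under 0.05 by limma 35 were higher and 0 lower, and the share of all probe sets at that threshold was not taken. The 12 that passed belong to 11 genes, the 8 above without Orc5, whose only probe set had an adjusted p = 0.0525, and with Orc2, Gins3, Mcm10 and Pola2. Fen1 was the only gene with a pair of the 12. In 64 probe sets every ASXL1-MT array was above every mock array (against 21.7% of all probe sets) and in 2 below (against 13.7%), 1 of Mcm3 with a change of -0.12 and 1 of Prim2 with -1.13. Bright replication probe sets had a median within-group SD of 0.117, and the others of 0.41. Of 53 genes, 41 had every probe set above 0, 3 had every one below (Pcna, Rpa2 and Rrm2) and 9 had probe sets on both sides.

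Promoter sequences were examined for the E2F element, since E2F factors are the textbook regulators of this gene set. The RefSeq table of build GRCm38.p6, with 250 bases before and 50 after each start site, held 55 promoters of 45 of the 54 genes. The element was searched as TTTGGCGC, TTTCCCGC, TTTGCCGC or TTTCGCGC on both strands, with overlapping matches merged. It was present in 15 of the 45 genes (33.3%), against 2.6% of the 27025 genes of the table and 3.81% of the 14452 that the array also measured. The CCAAT box, searched as CCAAT on both strands, was in 55.6% of the members and 41.1% of all. Shown 5′ to 3′ with matches in capitals are 4 promoters with a match whose genes rose with bright probe sets alone (Mcm6, Rfc3, Gins3 and Pold1), that of Cdc6, which has a match and was not called, and those of 3 genes without a match that rose in the test of all genes (Ung, Fen1 and Mcm2). For Fen1 the table holds a second promoter, also without a match.
Mcm6, chr1:128359656-128359955, minus strand: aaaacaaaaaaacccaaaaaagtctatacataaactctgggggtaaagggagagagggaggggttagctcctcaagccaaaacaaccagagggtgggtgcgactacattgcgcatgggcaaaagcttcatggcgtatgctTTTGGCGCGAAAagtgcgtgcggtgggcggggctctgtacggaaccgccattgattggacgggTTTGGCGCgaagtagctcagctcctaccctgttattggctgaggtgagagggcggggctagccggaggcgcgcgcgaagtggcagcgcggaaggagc
Rfc3, chr5:151651159-151651458, minus strand: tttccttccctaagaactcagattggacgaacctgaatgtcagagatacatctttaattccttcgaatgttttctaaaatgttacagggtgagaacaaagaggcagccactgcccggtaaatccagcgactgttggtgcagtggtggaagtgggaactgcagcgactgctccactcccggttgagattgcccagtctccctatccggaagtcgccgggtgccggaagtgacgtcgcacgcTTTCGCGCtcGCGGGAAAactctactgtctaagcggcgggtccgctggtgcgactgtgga
Gins3, chr8:95633309-95633608, plus strand: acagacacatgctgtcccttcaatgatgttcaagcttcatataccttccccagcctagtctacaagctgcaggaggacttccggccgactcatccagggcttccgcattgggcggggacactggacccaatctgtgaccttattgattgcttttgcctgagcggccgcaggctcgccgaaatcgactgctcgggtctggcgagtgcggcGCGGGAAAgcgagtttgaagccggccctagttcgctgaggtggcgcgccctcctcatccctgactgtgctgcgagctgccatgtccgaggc
Pold1, chr7:44548766-44549065, minus strand: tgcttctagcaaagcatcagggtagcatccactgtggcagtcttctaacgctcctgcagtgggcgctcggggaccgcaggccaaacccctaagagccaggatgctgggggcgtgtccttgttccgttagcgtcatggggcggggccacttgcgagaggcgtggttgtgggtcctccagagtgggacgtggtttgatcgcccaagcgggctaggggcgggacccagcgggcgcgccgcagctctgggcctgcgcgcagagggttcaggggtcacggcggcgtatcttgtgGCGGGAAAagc
Cdc6, chr11:98907901-98908200, plus strand: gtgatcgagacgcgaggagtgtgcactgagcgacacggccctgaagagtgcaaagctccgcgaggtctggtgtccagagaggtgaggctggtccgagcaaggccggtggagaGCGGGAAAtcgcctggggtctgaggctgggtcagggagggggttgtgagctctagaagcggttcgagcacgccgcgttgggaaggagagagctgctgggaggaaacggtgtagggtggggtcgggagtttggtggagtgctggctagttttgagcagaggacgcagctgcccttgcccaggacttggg
Ung, chr5:114130185-114130484, plus strand: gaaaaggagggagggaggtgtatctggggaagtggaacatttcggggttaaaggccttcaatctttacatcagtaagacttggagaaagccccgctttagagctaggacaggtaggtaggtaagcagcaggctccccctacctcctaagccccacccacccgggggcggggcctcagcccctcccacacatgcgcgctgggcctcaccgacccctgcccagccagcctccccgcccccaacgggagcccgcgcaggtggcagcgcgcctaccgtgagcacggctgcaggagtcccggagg
Fen1, chr19:10203872-10204171, minus strand: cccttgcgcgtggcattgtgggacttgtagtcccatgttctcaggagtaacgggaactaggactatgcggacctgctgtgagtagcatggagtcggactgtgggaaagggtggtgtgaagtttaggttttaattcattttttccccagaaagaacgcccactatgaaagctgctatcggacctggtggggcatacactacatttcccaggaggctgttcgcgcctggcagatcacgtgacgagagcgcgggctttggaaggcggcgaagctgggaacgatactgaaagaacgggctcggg
Mcm2, chr6:88898731-88899030, minus strand: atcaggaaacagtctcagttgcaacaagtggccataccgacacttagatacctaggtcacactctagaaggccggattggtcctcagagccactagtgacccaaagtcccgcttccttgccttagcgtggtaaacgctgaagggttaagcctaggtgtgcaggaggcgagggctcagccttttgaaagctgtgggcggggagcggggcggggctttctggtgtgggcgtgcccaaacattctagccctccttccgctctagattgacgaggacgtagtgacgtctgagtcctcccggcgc
In Mcm6 and Rfc3 the capitals mark a pair of matches, in Gins3, Pold1 and Cdc6 a single match, and in Ung, Fen1 and Mcm2 none. Of the 8 genes that rose in the limma test 7 had a promoter in the table, and 0 of the 7 held a match. Among bright probe sets, 8 of the 23 genes that rose and had a promoter held a match (34.8%), as did 7 of the 20 that were not called (35%). In that fit of bright probe sets the share was nearly equal in genes that rose and genes that were not called. By group, a match was found in 4 of 5 MCM genes, 3 of 6 polymerase genes, 2 of 6 origin recognition genes, 0 of 4 helicase activation genes and 0 of 6 nucleotide supply genes with a promoter. A match is a description of the letters in this window, and its absence says nothing of E2F binding.

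The groups of proteins had medians of different size, which were not tested against each other. Medians of the change ran from 0.12 in helicase loading to 0.62 in the DNA polymerases and 0.64 in replication-coupled chromatin, which rests on 2 genes. On bright probe sets alone the chromatin median was 0.31, that of helicase activation 0.60 and that of the polymerases 0.64. In the fit of all genes, in order, they were 0.26 for helicase activation, 0.28 for S phase entry, 0.29 for the clamp and its loader, 0.30 for the origin recognition complex, 0.32 for MCM, 0.38 for nucleotide supply, 0.43 for GINS, 0.49 for RPA and 0.59 for Okazaki fragment processing. All lay above the 0.11 of all genes. The spread inside a group was mostly wider than the gaps between groups, so the order is a description only.

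**Figure D3:**
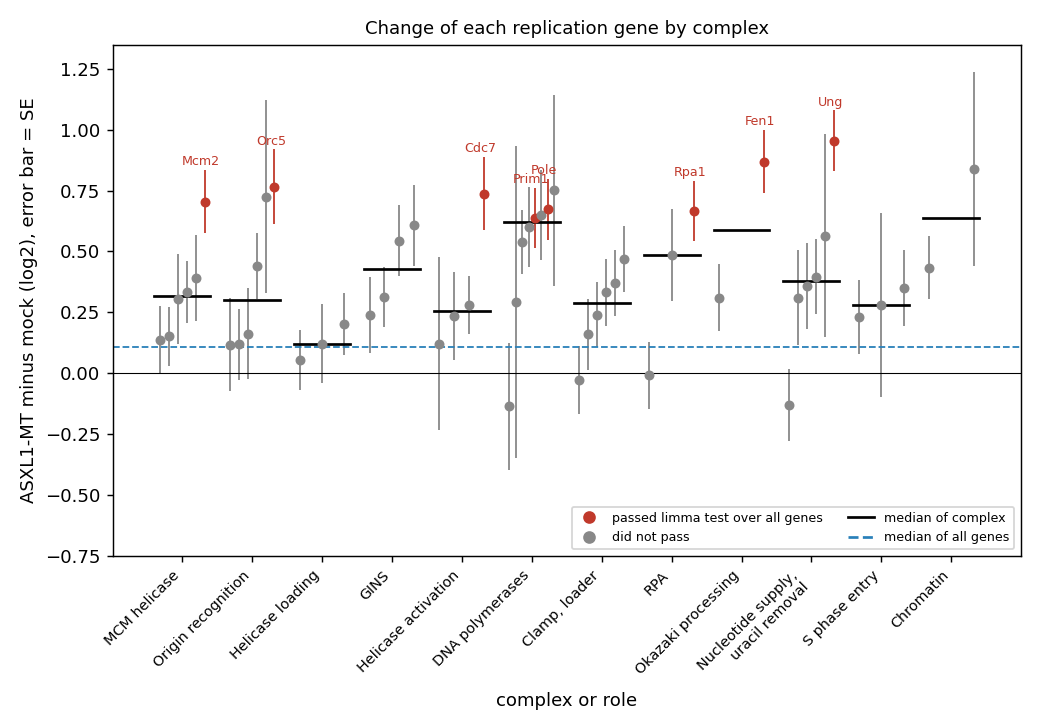
Change of each gene (points, ASXL1-MT minus mock, log2) with its SE (bars), by complex or role, with the median of each group as a black line and the median of all genes, 0.11, as a dashed line. Red points are the 8 genes that passed limma's test over all genes, and 4 grey points lie below 0.

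Of the 6 subunits of the origin recognition complex, the first to bind origins, Orc5 alone rose in the test of all genes. Orc5, a subunit of the complex's core, was 0.42, 0.28 and 0.26 in ASXL1-MT arrays, against -0.26, -0.62 and -0.45 in mock. The groups did not overlap, and it rose 1.70-fold (change 0.77, SE 0.15, adjusted p = 0.0368). It lost the call with equal array medians (adjusted p = 0.0538), after quantile normalization (adjusted p = 0.0664) and after cyclic loess (adjusted p = 0.0684). Orc2, which stays on chromatin through much of the cycle, was 0.28, 0.19 and 0.14 for ASXL1-MT against -0.25, -0.34 and -0.11 for mock (change 0.44, SE 0.14, adjusted p = 0.0999). Its probe set 1418225_at passed alone (change 0.76, adjusted p = 0.0403), while the others, which were not bright, had changes of 0.15 and 0.41. Orc1, the subunit whose level cycles, had a change of 0.72 with an SE of 0.40, since mock array 1 stood at -1.23 and mock array 3 at 0.15. Orc3, Orc4 and Orc6 had changes of 0.16, 0.12 and 0.12, and their groups overlapped. With bright probe sets alone 2 of the 6 subunits rose (33.3%), which is near the 27.6% of all genes in that fit.

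Of the 12 groups helicase loading had the lowest median change, and 0 of its 3 genes passed. Cdc6, the ATPase that recruits the helicase, was 0.21, 0.05 and 0.05 in ASXL1-MT arrays, against -0.05, -0.09 and -0.16 in mock (change 0.20, SE 0.13, adjusted p = 0.363). Cdt1, which brings MCM to the origin, was 0.17, 0.23 and -0.17 for ASXL1-MT against 0.02, -0.07 and -0.09 for mock (change 0.12, SE 0.16). Gmnn, geminin, which inhibits CDT1 and is present in S and G2, had a change of 0.06 (SE 0.12, adjusted p = 0.811). None of the 3 was called in the fit of all genes or with bright probe sets alone, and Cdc6 and Cdt1 passed in none of the other alternatives run. For Cdc6 all ASXL1-MT arrays were above all mock arrays, and for the other genes of this group they overlapped.

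All 6 subunits of the MCM helicase, the ring that unwinds DNA at the fork, had a change above 0, and their sizes differed. Mcm2 was 0.38, 0.36 and 0.30 in ASXL1-MT arrays, against -0.47, -0.30 and -0.30 in mock. It rose 1.63-fold (change 0.70, SE 0.13, adjusted p = 0.0308). Its 2 probe sets were both bright, with changes of 0.99 for 1434079_s_at and 0.42 for 1448777_at, and without probe sets of the _s_at class, whose probes may be shared between transcripts, the gene lost its call (adjusted p = 0.13). Mcm4 was 0.23, 0.24 and 0.09 for ASXL1-MT against -0.09, -0.19 and -0.15 for mock (change 0.33, adjusted p = 0.16), and Mcm5 had a change of 0.39 (adjusted p = 0.218). Mcm6 had a change of 0.30, in which its bright probe sets stood at 0.44 and 0.51 and the third, which was not bright, at -0.04. Mcm3 and Mcm7 had changes of 0.14 and 0.15. With bright probe sets alone Mcm2, Mcm4 and Mcm6 rose (50%, against 27.6% of all genes in that fit) and Mcm3, Mcm5 and Mcm7 were not called.

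Of the factors that turn the helicase on, Cdc7, the S phase kinase that phosphorylates MCM, was 0.23, 0.27 and 0.54 in ASXL1-MT arrays, against -0.30, -0.38 and -0.49 in mock. It rose 1.67-fold (change 0.74, SE 0.15, adjusted p = 0.0396), and both probe sets lay above 0. The call was lost with equal array medians (adjusted p = 0.0512), quantile normalization (adjusted p = 0.0518) and cyclic loess (adjusted p = 0.0588). Its partner Dbf4, the regulatory subunit of the kinase, had a change of 0.12 with an SE of 0.36, and its bright probe set had 0.05. Mcm10, which stabilizes the active helicase, had probe sets that disagreed, with changes of 0.84 for 1433408_a_at (adjusted p = 0.0451), 0.30 for 1433407_at and -0.45 for 1454244_at, and a mean change of 0.23 (adjusted p = 0.453). The first was the bright probe set of the 3. Cdc45, a core part of the active helicase, was 0.28, 0.27 and 0.24 for ASXL1-MT against 0.01, -0.03 and -0.03 for mock (change 0.28, SE 0.12, adjusted p = 0.192). These means join probe sets that differed by array, and in each of them the groups overlapped. The bright 1416575_at was -0.01, 0.52 and 0.51 for ASXL1-MT against -0.10, 0.01 and -0.01 for mock. The other, 1457838_at, was 0.56, 0.02 and -0.02 for ASXL1-MT against 0.12, -0.06 and -0.06 for mock.

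The GINS complex, which joins CDC45 and MCM in the active helicase, had 0 of 4 genes past the test of all genes. Gins2 was 0.36, 0.20 and 0.17 in ASXL1-MT arrays, against -0.35, -0.15 and -0.41 in mock (change 0.54, SE 0.14, adjusted p = 0.0726). Gins3 was 0.14, 0.59 and 0.33 for ASXL1-MT against -0.17, -0.29 and -0.30 for mock (change 0.61, SE 0.17, adjusted p = 0.0772), and its probe set 1429149_at passed alone (change 0.90, adjusted p = 0.0354). Gins4 had a change of 0.31 (adjusted p = 0.169) and Gins1 of 0.24 (adjusted p = 0.376). The groups did not overlap in 3 of the 4 (75%, against 23.5% of all genes with ASXL1-MT higher). With bright probe sets alone the same 3, Gins2, Gins3 and Gins4, rose (against 27.6% of all genes in that fit).

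Of 8 DNA polymerase genes 2 rose, Pole and Prim1 (25%, against 6.63% of all genes). Pole, the catalytic subunit of leading strand polymerase epsilon, was 0.34, 0.29 and 0.28 in ASXL1-MT arrays, against -0.43, -0.28 and -0.41 in mock. It rose 1.59-fold (change 0.67, SE 0.13, adjusted p = 0.0319). Prim1, the catalytic subunit of primase, was 0.31, 0.28 and 0.42 for ASXL1-MT against -0.32, -0.32 and -0.26 for mock, and rose 1.55-fold (change 0.64, SE 0.12, adjusted p = 0.0354). After cyclic loess both lost their calls, with adjusted p = 0.0507 for Pole and adjusted p = 0.0562 for Prim1, and Prim1 also lost it after quantile normalization (adjusted p = 0.0527) and without probe sets of the _x_at, _s_at and _a_at classes (adjusted p = 0.077). The polymerase delta subunits Pold1 and Pold2, of the lagging strand enzyme, had changes of 0.54 (adjusted p = 0.0584) and 0.65 (adjusted p = 0.0842), and Pole2, an accessory subunit of epsilon, had 0.60 (adjusted p = 0.0771). In each of these 5 genes the groups did not overlap (62.5% of the 8, against 23.5% of all genes with ASXL1-MT higher).

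In the remaining polymerase genes the probe sets differed in spread or in direction. Pola2, the regulatory subunit of polymerase alpha, was 0.88, 0.36 and -0.02 in ASXL1-MT arrays, against 0.35, -0.64 and -0.74 in mock (change 0.75, SE 0.39, adjusted p = 0.274). Its bright probe set 1448369_at passed alone (change 0.91, adjusted p = 0.0356), and the spread came from 1425794_at, which ran from 1.74 in ASXL1-MT array 1 to -1.61 in mock array 3. Pola1, the catalytic subunit, had 0.60 in its bright probe set and -0.01 in the other. Prim2, the large primase subunit, had 0.41 and 0.31 in a pair of probe sets and -1.13 in 1445474_at, where ASXL1-MT array 2 stood at -2.29, so its mean change was -0.14 (SE 0.26). With bright probe sets alone 7 of the 8 polymerase genes rose (87.5%, against 27.6% of all genes in that fit) and Prim2 did not.

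RPA and the clamp were uneven. Rpa1, the large subunit that coats single-stranded DNA, was 0.30, 0.28 and 0.25 in ASXL1-MT arrays, against -0.47, -0.35 and -0.35 in mock, and rose 1.59-fold (change 0.67, SE 0.12, adjusted p = 0.031). After cyclic loess the adjusted p = 0.0536. Rpa2, the middle subunit, had a change of -0.01 (SE 0.14) with both probe sets bright and close to 0, and Rpa3, the smallest, had 0.49 (SE 0.19, adjusted p = 0.163). Pcna, the sliding clamp itself, was 0.11, -0.08 and -0.03 for ASXL1-MT against -0.10, 0.03 and 0.14 for mock (change -0.03, SE 0.14, adjusted p = 0.922). Among the subunits of its loader, Rfc3 was 0.20, 0.14 and 0.20 for ASXL1-MT against -0.14, -0.39 and -0.35 for mock (change 0.47, SE 0.14, adjusted p = 0.0882). Rfc5 was 0.11, 0.26 and 0.18 for ASXL1-MT against -0.32, -0.13 and -0.11 for mock (change 0.37, adjusted p = 0.147), and Rfc4, Rfc1 and Rfc2 had 0.33, 0.24 and 0.16. With bright probe sets alone Rfc3, Rfc4 and Rfc5 rose, which is 50% of the clamp and loader genes, against 27.6% of all genes in that fit.

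Fen1, the flap nuclease that trims Okazaki fragments, was 0.37, 0.42 and 0.47 in ASXL1-MT arrays, against -0.55, -0.43 and -0.36 in mock. It rose 1.83-fold (change 0.87, SE 0.13, adjusted p = 0.0202), and both of its probe sets passed alone, with changes of 1.05 and 0.69. The first, 1436454_x_at, is of the _x_at class, whose probes may share sequence with other transcripts. The second, 1421731_a_at, is of the _a_at class. Lig1, the ligase that seals the fragments, was 0.24, 0.23 and 0.05 for ASXL1-MT against -0.23, -0.05 and -0.13 for mock (change 0.31, SE 0.14, adjusted p = 0.21). With bright probe sets alone it was called, which is a description only.

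In nucleotide supply and uracil removal the largest change of all members stood beside a change below 0. Ung, the glycosylase that removes uracil from DNA, was 0.54, 0.53 and 0.42 in ASXL1-MT arrays, against -0.47, -0.49 and -0.42 in mock. The arrays of each group lay close together and far from the other group, and it rose 1.94-fold (change 0.96, SE 0.12, adjusted p = 0.0154). Of the 8 it alone passed with an array left out, in 2 of 6 such fits, while the other 7 passed in 0 of 6, and it passed in 7 of 8 other alternatives. The alternative it failed was the replicate block, in which 0 of 18193 genes passed. Ung rests on 1 probe set, 1425753_a_at, and has none left without the _x_at, _s_at and _a_at classes. Dut, which clears dUTP so that uracil is not built in, had a change of 0.40 (SE 0.15, adjusted p = 0.162), and the salvage kinase Tk1 had 0.36 (SE 0.18, adjusted p = 0.251). Rrm2, the limiting subunit of ribonucleotide reductase, was -0.01, 0.04 and -0.18 for ASXL1-MT against -0.07, 0.13 and 0.18 for mock (change -0.13, SE 0.15, adjusted p = 0.622). Its 3 probe sets were bright and all below 0. Rrm1, the large subunit, had a change of 0.57 with an SE of 0.42, set by mock array 2 in 1440073_at at -3.58. With bright probe sets alone its change was 0.31. Tyms, thymidylate synthase, had 4 probe sets and none was bright, with changes from -0.31 to 0.99. A further probe set, 1424991_s_at, carried the symbols of both Tyms and the pseudogene Tyms-ps and was left out by the rule, as was 1457451_at, which carried Orc4 and Acvr2a.

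**Figure D4:**
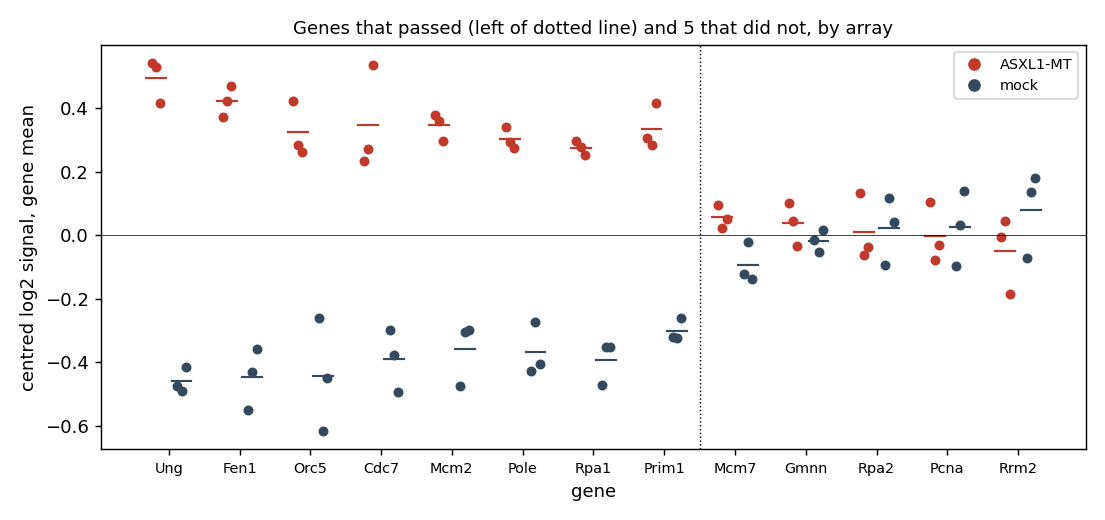
Centred log2 signal (vertical axis, mean of a gene's probe sets) of each array for the 8 genes that passed and, right of the dotted line, Mcm7, Gmnn, Rpa2, Pcna and Rrm2, which did not. Red points are ASXL1-MT arrays, dark points mock arrays and bars group means. All red points lie above all dark points in the 8 genes, and they overlap in 4 of the other 5, the exception being Mcm7.

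The genes of S phase entry did not pass in the fit of all genes. Ccne1 and Ccne2, the cyclins that drive CDK2 at the G1/S border, had changes of 0.23 (SE 0.15, adjusted p = 0.384) and 0.35 (SE 0.16, adjusted p = 0.215). Ccne2 was 0.01, 0.31 and 0.18 in ASXL1-MT arrays, against -0.01, -0.29 and -0.24 in mock, and Ccne1 was 0.35, 0.17 and -0.04 for ASXL1-MT against -0.08, -0.09 and -0.04 for mock. In both genes the lowest ASXL1-MT array stood barely above the highest mock array. E2f1, the activator of many replication genes, had 0.36 and 0.50 in its bright probe sets and -0.03 in 1447840_x_at. With bright probe sets alone its change was 0.43. Uhrf1, which reads newly copied DNA for maintenance methylation, was 0.18, 0.35 and 0.20 for ASXL1-MT against -0.15, -0.24 and -0.18 for mock (change 0.43, SE 0.13, adjusted p = 0.0916). Chaf1b, a subunit of the chaperone that deposits histones behind the fork, was 0.30, 0.19 and 0.02 for ASXL1-MT against -1.47, 0.01 and -0.55 for mock (change 0.84, SE 0.40, adjusted p = 0.235). Its bright probe set had a change of 0.18 and the other 1.49, so the gene mean rests mostly on the one that was not bright.

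Other genes of the pathway, from a list of 58 of which 56 were measured, gave 7 higher and 1 lower (12.5% higher, against 6.63% of all genes). Timeless, which protects the fork, rose 1.73-fold (change 0.79, SE 0.13, adjusted p = 0.0233). Exo1, a nuclease of mismatch repair and resection, rose 2.21-fold (change 1.14, adjusted p = 0.0332). Of 4 genes for enzymes that remove RNA from DNA 3 rose, with changes of 0.65 for Rnaseh1 (adjusted p = 0.0302), 0.92 for Rnaseh2a (adjusted p = 0.0412) and 0.62 for Rnaseh2b (adjusted p = 0.0451). The other, Rnaseh2c, a further subunit of RNase H2, had a change of -0.26 (SE 0.16, adjusted p = 0.369), with every ASXL1-MT array below every mock array. Nme1, a nucleoside diphosphate kinase, and Tfdp2, the dimer partner of E2F factors, had changes of 0.95 (adjusted p = 0.04) and 0.77 (adjusted p = 0.0413). Rb1, which restrains E2F, fell by 0.79 on the log2 scale (SE 0.16, adjusted p = 0.0365). With bright probe sets alone 27 of 54 rose (50%, against 27.6% of all genes in that fit) and 2 fell (against 16.2%). There Rb1 was not called (change -0.33, adjusted p = 0.0721). Nme1 and Rb1 also lost their calls with the probe set of smallest spread, with changes of 0.27 and -0.33. Rnaseh2a, Rnaseh2b, Nme1 and Tfdp2 lost theirs under each of the 3 rescalings (adjusted p from 0.0515 to 0.0774), and each of the 8 lost its call whichever of the 6 arrays was omitted. The mitosis markers, of which 19 were measured, all had a change above 0, with a median of 0.35, 14 without overlap between groups (73.7%, against 23.5% of all genes) and 1, Aurkb, past the test (5.26%, against 6.63% of all genes).

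Markers of cell types differed between the groups too. In the same limma test 6.63% of all genes rose and 4.75% fell. Of 16 mature neutrophil markers 9 fell and 0 rose (0 higher also at an unadjusted p under 0.05), with means of -0.75, -0.65 and -0.89 in ASXL1-MT arrays, against 0.63, 0.64 and 0.70 in mock. Of 7 granulocyte precursor markers 2 fell, with means from -0.37 to -0.15 in ASXL1-MT and from 0.21 to 0.42 in mock. Of 12 stem and progenitor markers 5 rose and 1 fell, with means of 0.30, 0.08 and 0.36 for ASXL1-MT against -0.71, -0.29 and -0.66 for mock. Of 11 dendritic cell markers 9 rose, with means from 0.97 to 1.01 in ASXL1-MT and from -2.23 to -0.91 in mock. Of 8 megakaryocyte markers 5 fell, with means from -1.18 to -0.41 in ASXL1-MT and from 0.29 to 1.14 in mock. For the lineages that the depletion targeted, 1 of 12 erythroid, 2 of 10 B cell and 3 of 9 T and NK cell markers rose, and 0 fell. The change was above 0 in 12 of the 12, 3 of the 10 and 6 of the 9, against 56.6% of all genes. The median changes were 1.65, -0.30 and 0.78. The erythroid mean was 1.67, 0.57 and 0.10 for ASXL1-MT against -1.19, -0.64 and -0.27 for mock. B cell means ran from -0.38 to 0.08 in ASXL1-MT and from -0.57 to 1.03 in mock, and T and NK cell means from -0.01 to 0.57 in ASXL1-MT and from -1.59 to 0.12 in mock, so both overlapped between the groups. The replication means of the same ASXL1-MT arrays were 0.19, 0.16 and 0.18. Centred values do not show which markers are at or near background. The part of these shifts in the replication results was not tested.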

How the data were processed

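RNA of 6 marrow samples was measured on Affymetrix mouse arrays. The deposited values are on a log2 scale made from MAS5 signals, per the submitters' processing notes, and the log base and the centring of each probe set on its median over the 6 arrays were read from the values and are not given in the sources used here. A fold holds only if the base is 2. The array is named 430A in the series text, while the table holds 45037 probe sets. A probe set's gene came from the platform annotation, 34945 probe sets had 1 symbol, 932 several and 9160 none, and the mean of a gene's probe sets was used. ASXL1-MT and mock were compared with limma 3.58.1 in R 4.3.3 (lmFit and eBayes, group as the only term), with Benjamini-Hochberg adjustment over all 45037 probe sets or 18193 genes at 0.05. The fit was tested on simulated data. The members, gene lists and tests were chosen with earlier results of these data known. Genes named with their values are the members, and the called genes of the other list. Bright probe sets have their 3 highest arrays on the rounding step that log values take at signals of 256 or more, within 0.1 of a step. Alternatives were other scalings, limma settings, probe set rules, a replicate block, and each array left out. Same-numbered samples deviated with correlations from -0.0116 to -0.00882, so the numbers were not used as pairs. The number of arrays limits the precision.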

Additional observations from a re-analysis of the deposited data

How the results depend on the processing

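With 3 arrays a group, calls are few and depend on settings, and since values are centred, signal over background is known only through the bright rule. In the fit of all genes the count of replication probe sets changed, 12, became 6 with array medians set equal, 7 after quantile normalization, 5 after cyclic loess, 7 with robust eBayes and 37 with bright probe sets alone. The count of genes changed, 8, became 5 after quantile normalization (9.43%, against 5.33% of all genes higher) and 3 after cyclic loess. With bright probe sets alone it was 27, and on each gene's least variable probe set 19 (35.8%, against 13.5%). The least variable probe set was picked by the within-group spread that the test also uses, so counts on it are a description. Calls over all genes rose with it from 11.4% to 21.4%. Without _x_at, _s_at and _a_at probe sets the count of genes changed was 2, Orc5 and Rpa1 (4.26% of 47 genes, against 4.94% of all genes). There Mcm7, Cdc6, Cdc7, Pole, Fen1 and Ung have no probe set left. The count of other replication genes changed, 8, became 4 with equal medians, quantile normalization or cyclic loess, 29 with bright probe sets, 23 with the smallest spread and 3 without those classes. With the replicate block it was 0 for all of these, and also 0 of all 18193 genes and 0 of all 45037 probe sets. There limma gave 21 probe sets, 15 genes and 14 other genes higher and 0, 0 and 1 lower at an unadjusted p under 0.05. The matching shares of all probe sets and all genes with the block were not taken, so these counts cannot be set against a background. With 1 array left out 0 to 1 genes, 0 to 0 probe sets and 0 to 0 other genes were called, where 0.401% to 2.8% of all genes rose. In those fits 13 to 20 member genes were higher and 0 lower at an unadjusted p under 0.05 by limma. The share of all genes at that unadjusted threshold was not taken there, so these counts have no background beside them. The 1 gene called after adjustment was Ung, without ASXL1-MT replicate 1 or without mock replicate 1. No ASXL1-MT sample correlated best with the mock sample of its own number. Chosen after seeing the data, bright probe sets alone gave 30 probe sets and 21 genes with equal medians, 28 and 22 after cyclic loess, 33 and 25 without ASXL1-MT replicate 1, 22 and 19 without replicate 2, 23 and 19 without replicate 3, and 31 and 24, 24 and 19, and 31 and 24 without mock replicates 1, 2 and 3.

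The median change of all genes was 0.109, and under equal medians, quantile scaling and cyclic loess it was 0.027, 0.019 and 0.007, and higher genes were 58.3%, 49.3%, 47.6% and 46.6% of the calls. In that order of 3 scalings the members' median was 0.252, 0.245 and 0.24, MCM 0.237, 0.221 and 0.21, origin recognition 0.22, 0.208 and 0.193, GINS 0.347, 0.333 and 0.32, the clamp and loader 0.205, 0.197 and 0.173, Okazaki processing 0.508, 0.496 and 0.487 and nucleotide supply 0.295, 0.286 and 0.271. Helicase activation was 0.17 and 0.149 and RPA 0.381 and 0.378 after quantile and loess, and helicase loading 0.022 after loess. With bright probe sets the members' median was 0.363, activation 0.602 and chromatin 0.309. With the smallest spread it was 0.371 for members, 0.484 for GINS, 0.602 for activation, 0.365 for the clamp and loader, 0.498 for Okazaki processing and 0.326 for chromatin. Without the 3 classes it was 0.363 for members, 0.424 for MCM, 0.121 for activation and 0.31 for Okazaki processing, and Mcm10 reversed to -0.0709. With an array left out the median was 0.313 to 0.39 for members, 0.052 to 0.228 for loading, 0.255 to 0.308 for the clamp and loader and 0.387 to 0.606 for RPA. The cause was not tested.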
